A study of Mus musculus with 8 samples.

Results

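The B cells described here were cell barcodes from the sorted blood of tumor-bearing mice that carried at least 4 unique molecular identifiers (UMIs, each standing for 1 captured transcript) summed over 3 B cell genes. These genes were Cd79a and Cd79b, the signalling chains of the B cell antigen receptor, and Ms4a1, which encodes CD20. A member also had at least 500 gene UMIs, 200 genes, at most 25% mitochondrial UMIs, 20 or more hashtag UMIs, and under 5% of its UMIs in the neutrophil genes S100a8, S100a9, Retnlg, Csf3r and Cxcr2. The rule found 82 members among 18859 blood barcodes, 57 of 9622 in the control library and 25 of 9237 in the irradiated (IR) library. The whole series held 32121 barcodes that passed the same filters on UMIs, genes, mitochondrial share and hashtags. Members were thus chosen by their measured levels of Cd79a, Cd79b, Ms4a1 and the 5 neutrophil genes, and these levels are given as description only. In mm10 (positions from GENCODE vM21) Cd79a lies at chr7:24897381-24902197, Cd79b at chr11:106311341-106314762 and Ms4a1 at chr19:11249675-11266241.

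The study sorted CD45+CD11b+Ly6Chi myeloid cells from MC38 colon carcinoma tumors and from the blood of the same kind of mice, and profiled them with 10x 3′ single-cell RNA sequencing and antibody hashtags. In the IR group the subcutaneous tumor received one local dose of 20 Gy and cells were taken 3 days later, while the control tumors received no irradiation. Each library held a pool of 5 mice labelled WT, which were Ythdf2 fl/fl without Cre, and a pool of 5 mice labelled Ythdf2 cKO, which were LyzCre Ythdf2 fl/fl, all on the C57BL/6J background. The Cre sits at the Lyz2 locus, a driver for myeloid cells and not for B cells, and all groups carried the floxed allele and an MC38 tumor. Male and female mice of 8 to 10 weeks were used. Each of the 4 blood groups, WT control, cKO control, WT IR and cKO IR, was therefore 1 pool, and each treatment was 1 library, so a treatment and its library cannot be told apart. No test between groups was possible. Intervals in the text are 95% intervals and cover counting error only, not differences between mice or libraries.

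B lymphocytes recognise antigen through a surface immunoglobulin held by the Cd79a and Cd79b chains, and they take up, process and present that antigen on MHC class II molecules. Pax5 and Ebf1 set and hold the B lineage programme. Follicular B cells, the main recirculating kind in blood, carry IgM and IgD and home to lymph nodes and spleen, and plasma cells are the differentiated form that secretes antibody. The paper used its gate on CD45, CD11b and high Ly6C to collect monocytic myeloid-derived suppressor cells, so B cells in it are a minor population that passed the sort.

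Blood libraries held 51731085 (control) and 51653956 (IR) gene UMIs, and kept barcodes had medians of 3046 and 2924 UMIs. Barcodes above the neutrophil limit made up 12020 of the 18859. The 2 blood libraries shared 24 barcode sequences, of which 0 were members. Ythdf2 went against the genotype labels in the blood barcodes that were not members: its CPM (UMIs as a share of all gene UMIs, scaled to a library of 1000000) was 9.84-fold higher under the cKO hashtag than under the WT hashtag in the control library and 10.5-fold higher in the IR library. The 3′ tags need not cover the deleted part of the gene, so they do not check the deletion. The text therefore speaks of WT-hashtag and cKO-hashtag cells.

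Marker UMIs separated the members from the other neutrophil-poor barcodes with few barcodes in between. In the control library 3212 neutrophil-poor barcodes had 0 marker UMIs, 300 had 1, 34 had 2 and 10 had 3, whereas 51 of the 57 members had 12 or more. In the IR library 2919 had 0, 228 had 1, 48 had 2 and 6 had 3, and 22 of the 25 members had 12 or more. The barcodes just outside the limit, with 3 marker UMIs, all had 0 Igkc UMIs and held 34 to 553 UMIs of the classical monocyte genes. The barcodes just inside, with 4 or 5, had 0 or 1 Igkc UMI and 22 to 509 monocyte UMIs. Another 2 barcodes in each library had 18 to 30 marker UMIs and were kept out by 7.43% to 11.5% of UMIs in neutrophil genes.

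**Figure D1:**
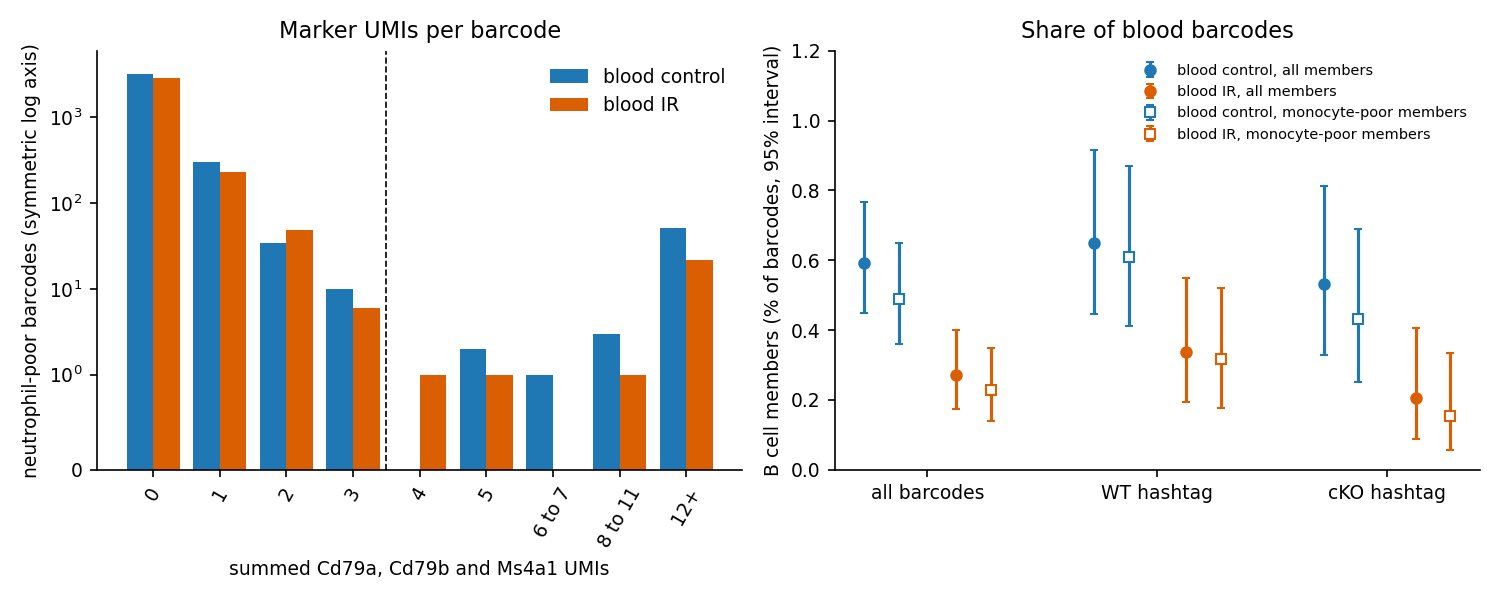
Left, number of neutrophil-poor blood barcodes (y axis, scale linear near 0 and logarithmic above) by UMIs summed over Cd79a, Cd79b and Ms4a1 (x axis), for each library. Right, percent of blood barcodes that were members, by library and hashtag, for all members and for monocyte-poor members, with exact binomial intervals. Most members lie at 12 or more marker UMIs, and members make up 0.592% of control and 0.271% of IR barcodes.

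Members were shallower than most barcodes outside the neutrophil limit and had more mitochondrial UMIs. They had a median of 3572 gene UMIs (1281 to 25924), 1495.5 genes and 2.78% mitochondrial UMIs, against medians of 3040 and 2922.5 UMIs in the other control and IR barcodes, and of 8814.5 and 10869 in those that were neutrophil-poor. Mitochondrial medians were 0.247% and 0.186% in all other barcodes and 1.48% in the neutrophil-poor ones of the IR library. HTODemux, which assigns a barcode to the hashtag it carries, placed 48 members under the WT hashtag and 29 under the cKO hashtag and called 5 carriers of both.

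A subset of 14 members, 10 control and 4 IR, also held 10 or more UMIs of the classical monocyte genes, which include Lyz2, Ccr2 and Ly6c2, and they stood apart from the other 68. Their median depth was 12645.5 UMIs in control and 15962.5 in IR, against 3291 and 3645 in the 68 monocyte-poor members. All 5 carriers of both hashtags were among the 14, and 0 were among the 68. The CD11b gene Itgam, which is not on the monocyte list, was detected in 14 of the 14 and in 7 of the 68. Ly6c2 was detected in 13 of the 14 and 6 of the 68, but it is one of the genes that made the split. The limit of 10 UMIs is a fixed count that deeper barcodes reach more easily, so the depth and detection differences are partly built in. The 14 contributed 132452 of the 294667 member UMIs in control and 64679 of the 156075 in IR, so the main results are given for all 82 members and for the 68. In the cKO IR pool of 8 members, 2 of the 14, of 20399 and 12355 UMIs, made up more than the other 6 together, of 59925 in all, and neither held an Ighd or Ccr7 UMI. The monocyte-poor split was chosen after the data were seen.

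Lyz2, the lysozyme gene at the Cre locus, followed the hashtags of the members with monocyte RNA. The 3 of these with the WT hashtag had 146 to 368 Lyz2 UMIs, the 6 with the cKO hashtag had 0 or 1, and the 5 with both had 0 to 19. One of the 6 was the IR member described below with Igha, the IgA heavy chain, for which 23 of its 24 monocyte UMIs were Ly6c2, a gene that also stands on the plasma cell list. Of the 14 members, 3 carried under 3 light chain UMIs.

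**Figure D2:**
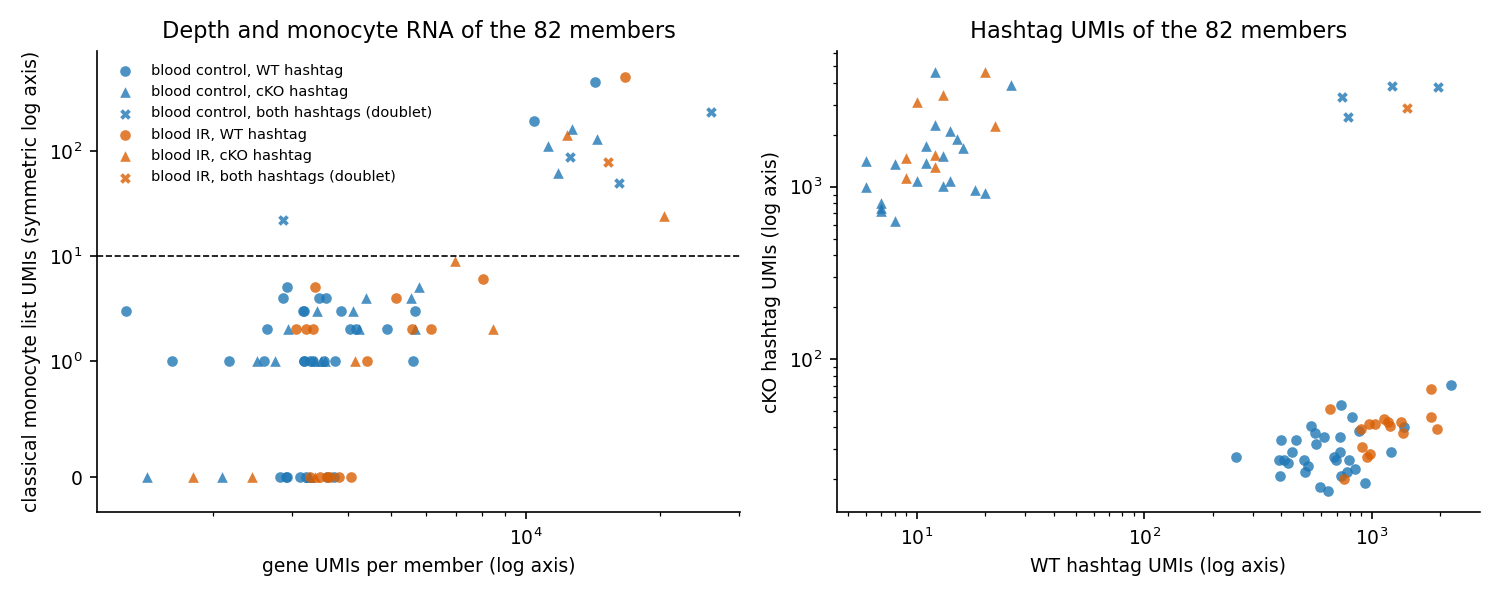
Each point is 1 of the 82 members. Left, gene UMIs (x axis) against UMIs summed over the classical monocyte genes (y axis), with the dashed line at 10 UMIs. Right, UMIs of the WT hashtag (x axis) against those of the cKO hashtag (y axis). The 14 members above the line include the deepest barcode, with 25924 UMIs, and the 5 carriers of both hashtags.

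To show one sequence feature of B lineage genes, promoters were searched for the octamer ATGCAAAT on either strand, the motif bound by Oct-1 and Oct-2 with their B cell coactivator Pou2af1. The windows ran from 250 bases before to 50 after the start in the RefSeq promoter table of GRCm38.p6. Of the 86 genes on the B lineage, transcription factor, receptor signalling, immunoglobulin, class II and survival lists, 56 had a promoter in the table and 3 of these held the octamer. The 3 were Blnk, the adaptor of the B cell receptor, Prkcb, the kinase that carries its signal to NF-κB, and Vpreb3, a pre-B cell receptor partner. Their 250 upstream bases follow because all 3 genes were higher in the members. Capitals mark the octamer, and each sequence is on the strand of its gene.
Blnk promoter, chr19:40994222-40994471, minus strand: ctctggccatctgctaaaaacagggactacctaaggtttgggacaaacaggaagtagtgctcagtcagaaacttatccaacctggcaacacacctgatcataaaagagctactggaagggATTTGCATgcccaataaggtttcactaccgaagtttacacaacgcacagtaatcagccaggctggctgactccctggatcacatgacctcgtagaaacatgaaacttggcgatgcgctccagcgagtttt
Prkcb promoter, chr7:122288875-122289124, plus strand: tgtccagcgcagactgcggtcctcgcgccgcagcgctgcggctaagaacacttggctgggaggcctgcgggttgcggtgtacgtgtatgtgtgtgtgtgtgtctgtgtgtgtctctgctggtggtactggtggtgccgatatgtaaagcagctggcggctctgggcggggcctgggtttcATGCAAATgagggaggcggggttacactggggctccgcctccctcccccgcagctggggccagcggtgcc
Vpreb3 promoter, chr10:75948050-75948299, plus strand: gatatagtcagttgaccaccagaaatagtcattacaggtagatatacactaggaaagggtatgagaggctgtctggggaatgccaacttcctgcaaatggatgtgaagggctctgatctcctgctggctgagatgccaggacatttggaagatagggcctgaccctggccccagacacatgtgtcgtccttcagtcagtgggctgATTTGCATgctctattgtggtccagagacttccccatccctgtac

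The octamer began 130 bases before the start in Blnk, 70 in Prkcb and 45 in Vpreb3. It was no more frequent in promoters of genes higher in B cells than in those of genes lower in B cells. It was in 1.97% of the 27025 promoters in the table, in 1.74% of those of counted genes, in 3.25% (8 of 246) of those higher in the members and in 3.51% (10 of 285) of those lower. An EBF-like motif, CCCNNGGG, was in 15.4% of all promoters, 22.5% of those of counted genes, 24.4% of the higher and 22.1% of the lower set.

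To describe the transcriptome, UMIs were summed over the members of a library and compared with the sum over all its other blood barcodes. A gene was counted when the members held 10 or more UMIs in each library, or would be expected to hold them at the level of the other barcodes, and was called higher or lower when its log2 ratio was at least 1 or at most -1 in both libraries. Of 2871 genes counted, 324 were higher (11.3%) and 366 were lower (12.7%) in the members. Without the members with monocyte RNA, 349 of 1885 were higher (18.5%) and 456 were lower (24.2%), with 262 higher and 257 lower genes called both ways. The other normalization, edgeR's TMM, moved the ratios of all genes by -0.38 in control and -0.24 in IR on the log2 scale and called 219 genes higher and 629 lower, so that 25.8% of the calls were higher, against 47.0% by total UMIs. Of the 18777 other barcodes 12020 were above the neutrophil limit. Of the rest, 4930 held 10 or more classical monocyte UMIs, so that "higher" means mostly higher than in neutrophil-rich and monocyte barcodes.

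B lineage surface genes were nearly all higher. Of 18 listed genes 15 were counted, 14 were higher and 0 lower, with a median log2 ratio of 6.78 in control and 7.64 in IR, against 0.02 and -0.11 over all counted genes. Ly6d, a GPI-anchored surface protein of B cells, stood at 3389 CPM in WT control, 2509 in cKO control, 3152 in WT IR and 2720 in cKO IR members, and at 3975, 4043, 3970 and 4895 in monocyte-poor members, while other barcodes had 0.624 in control and 0.823 in IR. All 4 pools were far above the other barcodes, and the log2 ratios were 11.85 (11.41 to 12.52) and 11.66 (11.27 to 12.24). Fcmr, the receptor for the IgM constant part, was at 299 and 551 CPM, against 0.125 and 0.165 in other barcodes. Cd24a, shared with myeloid cells, was the 1 counted surface gene that did not pass, at 282 and 205 CPM against 190 and 178.

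The lineage transcription factors were higher as well, 13 of 18 counted, with Spi1 the only one lower. Ebf1 stood at 1327 CPM in WT control, 1089 in cKO control, 1150 in WT IR and 467 in cKO IR members, against 0.416 and 0.391 in other control and IR barcodes. In monocyte-poor members the cKO IR level was 1031 CPM (685 to 1489), against 1634, 1763 and 1448 in the pools of WT control, cKO control and WT IR. Pax5 was at 261 (206 to 327) and 218 (151 to 304) CPM in control and IR members, against 2 UMIs in the other barcodes of each library. Pou2af1, the octamer coactivator named above, was at 224 and 263 CPM. Spi1 encodes PU.1, which is high in myeloid cells, and was at 363 CPM in control and 250 in IR members, against 823 and 858 in other barcodes. In monocyte-poor members its level was 117 and 120 CPM. Bach2, Pou2f2, Bcl11a, Ets1, Ikzf3, Mef2c, Tcf3, Tcf4, Id3 and Spib were also higher, whereas Ikzf1, Irf8, Klf2 and Klf3 did not pass the limit.

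Genes of B cell receptor signalling were divided between those higher in the members and those not past the limit. Of 23 counted, 9 were higher, 0 lower and 14 did not pass, with median log2 ratios of 0.43 in control and 0.23 in IR. Among the higher genes were the surface regulators Cd22, Cd72 and Cd81, the Src-family kinase gene Blk, the adaptor gene Blnk, and Prkcb and Malt1 of the NF-κB branch. Blnk stood at 136 CPM in control and 154 in IR members, with log2 ratios of 9.09 and 8.34, and Prkcb at 187 and 224 CPM, with ratios of 1.12 and 1.43. The genes that did not pass are also used by myeloid cells, among them Lyn, Btk, Plcg2, Ptpn6 and Syk. Syk was at 411 and 340 CPM in members against 305 and 290 in other barcodes.

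**Figure D3:**
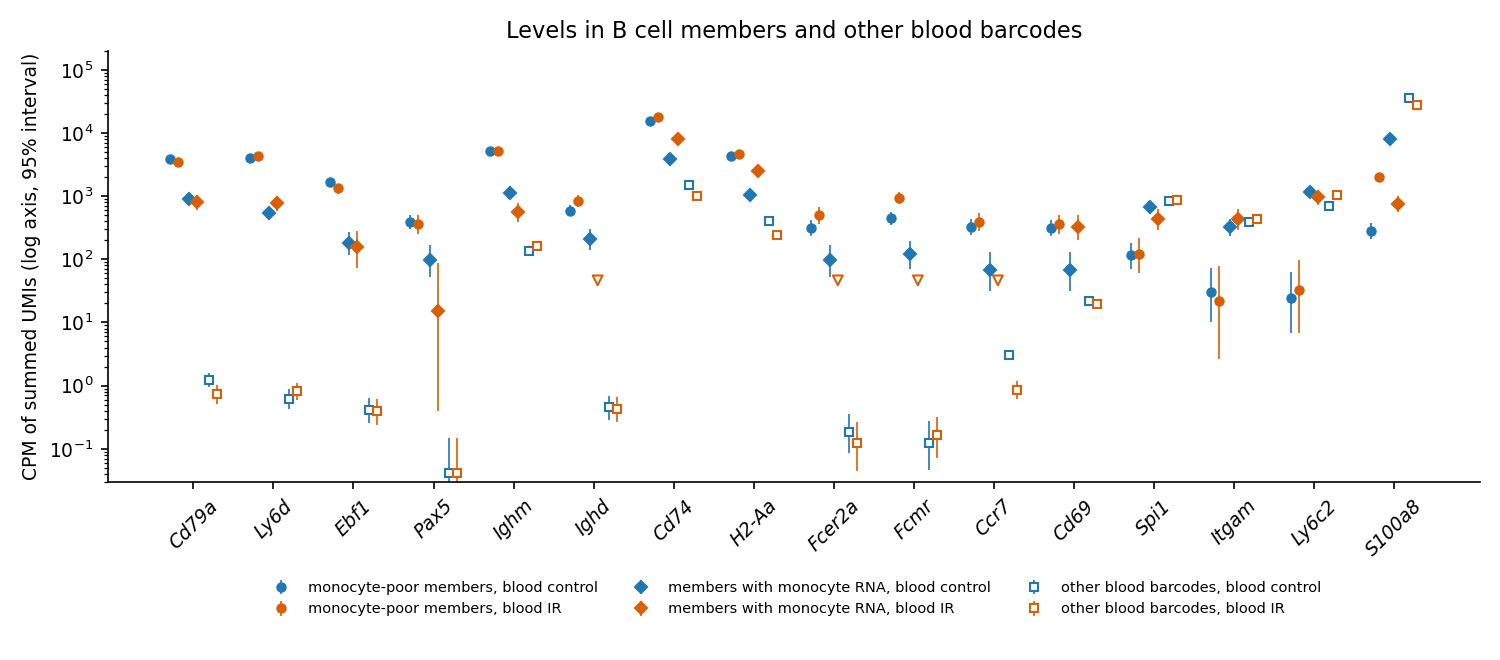
Level in CPM (y axis, logarithmic) of 16 genes (x axis) in monocyte-poor members, members with monocyte RNA and other blood barcodes, with exact Poisson intervals. An open triangle marks the 3-count limit where no UMI was found. Cd74 is present in all 3 sets, at 1519 CPM in other control barcodes, while Ebf1 and Pax5 are below 1 CPM outside the members.

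Ighm RNA was found in most members. Barcodes just outside the rule, with 3 marker UMIs and 0 Igkc, held 0 to 11 Ighm UMIs. A count of 3 Ighm UMIs therefore does not by itself mark an IgM-bearing cell. Ighm had 3 or more UMIs in 76 of 82 members and in 64 of the 68 monocyte-poor members, and Ighd in 34 and 29, with both in 32 and 27. Ighm stood at 4532 CPM in WT control, 3411 in cKO control, 4401 in WT IR and 1919 in cKO IR members, and in monocyte-poor members at 5041, 5466, 5527 and 4122 in the same order. Other barcodes also held Ighm, at 134 CPM in control and 164 in IR, with 110 in neutrophil-rich and 153 in other monocyte barcodes of the control library. Ighm was 25.1-fold higher in control members than in the other barcodes, a log2 ratio of 4.65 (4.55 to 4.75), and its ratio in IR was 4.29 (4.16 to 4.42).

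Ighd was more restricted to the members. It stood at 421 CPM in control and 493 in IR members, against 0.457 and 0.432 in other barcodes. By pool its level was 472 in WT control, 509 in cKO control, 816 in WT IR and 184 in cKO IR, and in monocyte-poor members 568, 631, 1028 and 405. After each barcode was thinned to 1000 UMIs, which left out 0 members and 53 control and 46 IR neutrophil-rich barcodes as too shallow, Ighd was found in 33.3% of control members (21.4 to 47.1) and 36.0% of IR members, against 0.100% of 1000 neutrophil-rich barcodes drawn from each library. Unthinned shares were 78.9% and 72.0% of members, and 0.233% and 0.166% of neutrophil-rich barcodes. Thinned Ighm was found in 90.5% of IR monocyte-poor members and in 11.5% of neutrophil-rich IR barcodes.

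Class-switched heavy chains were few. Of the 82 members, 5 had 3 or more Ighg UMIs, and 3 of these had no Ighm. No member had Ighg1, Ighg2c or Ighe UMIs. Igha had 1808 UMIs in 1 IR member, and 2 and 1 in a pair of control members.

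Light chains were mixed within single barcodes. Of 79 members with 3 or more light chain UMIs, 6 had at least 90% kappa and 6 at least 90% lambda, and 67 reached 90% of neither. All 6 lambda members had 0 Igkc UMIs and 33 to 126 UMIs over Iglc1, Iglc2 and Iglc3, with a median of 77, while all 73 members with Igkc also had at least 1 lambda UMI, with medians of 45 Igkc and 15 lambda UMIs. In the monocyte-poor members the same held for 62 of 62, with 2 to 45 lambda UMIs. Iglc1, Iglc2 and Iglc3 are near-identical copies, so that the split between them is uncertain. Other blood barcodes held under 1 CPM of each Iglc gene, and barcodes of under 100 UMIs held 185 CPM of Igkc in control and 75.3 in IR, against 7612 and 35861 CPM in members. Why kappa members also carried lambda UMIs was not tested.

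**Figure D4:**
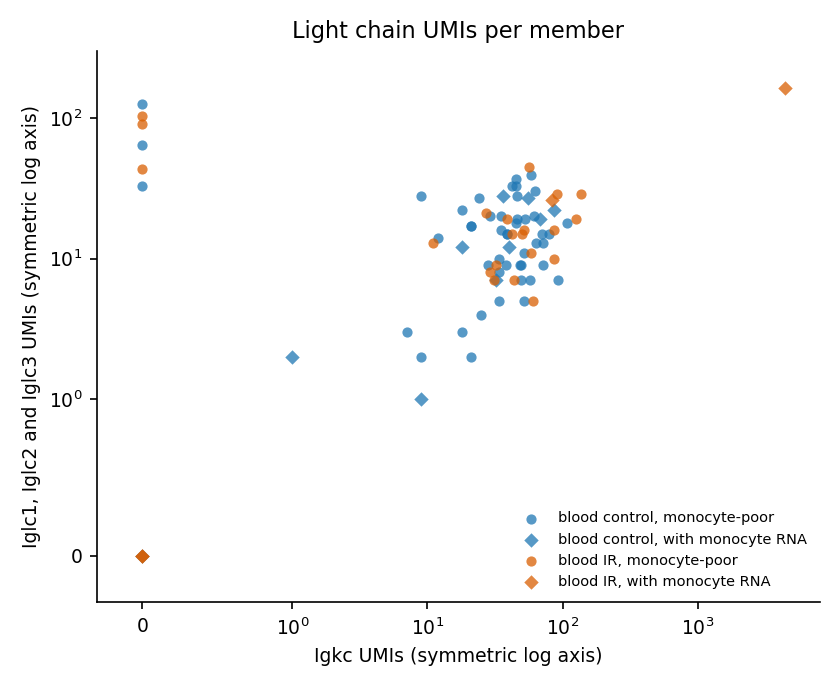
Igkc UMIs (x axis) against UMIs summed over Iglc1, Iglc2 and Iglc3 (y axis) in each of the 82 members. The 6 lambda members sit at 0 Igkc and 33 to 126 Iglc UMIs, and the 73 members with Igkc all hold at least 1 Iglc UMI. Both axes are linear near 0 and logarithmic above.

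Igkc was set by 1 member in the IR library. Its level was 10718 CPM in WT control, 7679 in cKO control, 8988 in WT IR and 79883 in cKO IR members, and 11694 and 11576 CPM in control and IR monocyte-poor members. The member behind the cKO IR value held 20399 UMIs, of which 4456 were Igkc, 1808 Igha and 502 Jchain, the joining chain of secreted IgA and IgM, with 0 Ighm. It also held 56 UMIs of Mzb1, 40 of Txndc5 and 9 of Tnfrsf17, genes of antibody folding and of the plasma cell survival receptor BCMA. It was the only member with Jchain, and it carried the variable segments Igkv10-96, with 45 UMIs, and Ighv1-12, with 5. Other segments had few UMIs, with Igkv14-111 at 4 over all members.

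Class II genes were higher with 1 exception. Of 10 counted genes 9 were higher and 0 lower, with medians of 2.87 in control and 3.94 in IR. Cd74, the invariant chain, stood at 13604 CPM in WT control, 11046 in cKO control, 14316 in WT IR and 14985 in cKO IR members, against 1519 and 1004 in other control and IR barcodes. Its log2 ratios were 2.77 (2.72 to 2.82) and 3.76 (3.69 to 3.82). Over all hashtags the members were at 10378 CPM in control and 13583 in IR, so that the larger IR ratio went with a higher level in members and a lower one in the other barcodes. The IR level included 362 Cd74 UMIs of 1 cKO-hashtag member of 12355 UMIs, which had 4 marker UMIs, 0 Igkc and 143 monocyte UMIs. In monocyte-poor members, which leave it out, 9 of 9 counted class II genes were higher, with medians of 3.52 in control and 4.28 in IR. H2-Aa, a class II chain, was at 2840 and 3787 CPM in members and at 404 and 243 in others. H2-Ob, a B cell modulator of peptide loading, was at 295 and 269 CPM against 1.75 and 0.803. H2-DMb1 did not pass.

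Survival and trafficking genes gave a mixed picture. Receptors for BAFF, Tnfrsf13c at 173 and 89.7 CPM and Tnfrsf13b at 143 and 218, and the survival gene Bcl2 at 102 and 128 were higher, 3 of 7 counted survival genes, with Birc3, Nfkb2, Mcl1 and Pim1 not past the limit. Of 15 counted trafficking genes, 5 were higher and 6 lower. Ccr7, the lymph node homing receptor, stood at 344 CPM in WT control, 170 in cKO control, 371 in WT IR and 100 in cKO IR members, against 3.01 and 0.865 in other barcodes. In monocyte-poor members the 4 levels were 418, 178, 467 and 221 CPM. S1pr1, which guides exit from lymphoid tissue, was at 193 (147 to 251) and 115 (68.4 to 182) CPM in control and IR members, and S1pr4, Gpr183 and Cd69 were also higher. Lower were Itgal, Itgam, Itgb1, Itgb2, Cd44 and Selplg, all adhesion genes. Itgam, the CD11b gene of the sort, was at 163 and 192 CPM against 387 and 433 in other barcodes, and at 30.8 and 21.9 in monocyte-poor members.

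Follicular genes were mostly higher. Of 10 follicular genes 7 were counted and 5 were higher, with Ighd, Fcer2a, Ccr7, Fcmr and Cd55, and medians of 6.78 and 7.99. Fcer2a, the IgE receptor CD23, was at 217 (167 to 277) and 295 (216 to 393) CPM and was detected in 40 of 82 members. Marginal zone genes gave 1 of 4 counted higher, Mzb1, and the B1 and CD11b-bearing list gave 0 higher and 5 lower of 11 counted. In monocyte-poor members 1 of 4 counted marginal zone genes was higher and 3 lower. There the B1 and CD11b-bearing list gave 0 higher and 10 lower of 10 counted. The other barcodes were mostly neutrophils and monocytes, which share genes of these lists such as Itgam, so the counts do not tell kinds of B cell apart. Cr2, the complement receptor CD21, had 16 and 9 UMIs and was detected in 17 members. Of the 12 transitional and precursor genes 3 were counted and 2 were higher, Ly6d and Vpreb3, both described above. Cd93, a transitional B cell marker on myeloid cells as well, was detected in 7 members and in 1 of the 68 monocyte-poor ones. Rag1, Rag2, Dntt, Igll1, Vpreb1 and Il7r, expressed in B cell precursors, and Cd5, a B1a marker, had 0 UMIs. Mki67, a proliferation marker, was detected in 2 members. Of the plasma cell list 2 of 6 counted genes were higher, Mzb1 and Ly6a, and Slpi was lower.

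Immediate early genes, switched on by activation or handling, were more often lower than higher. Of 18 counted immediate early genes 8 were lower and 1, Cd69, was higher, with Fos at 1130 and 756 CPM against 3140 and 2391 in other barcodes and at 191 and 284 in monocyte-poor members. In monocyte-poor members 3 were higher, Cd69, Dusp2 and Zfp36l1, and 9 lower. Of 19 counted interferon genes 2 were higher, Ly6a and Ifi203, and 5 lower, Isg15, Rsad2, Oasl2, Rtp4 and Gbp2. In monocyte-poor members 15 interferon genes were counted, 2 higher and 10 lower, with medians of -1.41 in control and -1.49 in IR. Of 6 counted p53 targets Sesn1, a stress-response sestrin, was higher, with log2 ratios of 3.37 (2.77 to 3.92) and 3.68 (2.83 to 4.43), and Cdkn1a and Fas were lower. Of the proliferation list 1 of 3 counted genes was higher (Tubb5) and 1 lower (Hmgb2), and the germinal centre list had 1 counted gene, Fas, which was lower. All 24 ribosomal and translation genes were counted, and 4 were higher, 10 in monocyte-poor members, with medians of 0.85 and 0.93.

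Markers of other cell types were mostly low in the members. Of the 18 neutrophil genes outside the rule, 15 were counted and 15 were lower, with medians of -2.69 and -2.85. This follows in large part from the rule, which kept out neutrophil-rich barcodes, while most of the other barcodes were neutrophil-rich. Of 15 counted classical monocyte genes, 4 were lower with all members, Csf1r, Chil3, Lyz2 and Cd14. In monocyte-poor members 13 were lower, which follows from their choice by low UMIs of these same genes. Of the nonclassical monocyte list 4 of 6 counted genes were lower. NK genes were lower in 3 of 3 counted (Nkg7, Gzma and Ccl5), and the erythroid genes Hba-a1 and Hbb-bs were lower. T cell genes were at or near 0: Cd3d had 1 UMI and Cd28 had 3. The plasmacytoid dendritic cell list had 4 of 6 counted genes higher, Mzb1, Tcf4, Ly6d and Ptprcap, which B cells also express, and its marker Siglech had 0 UMIs. Of m6A reader genes Ythdf2, Ythdc1 and Hnrnpa2b1 were counted, and none passed with all members. Ythdf2 was lower in monocyte-poor members, at -4.70 in control and -1.65 in IR, but was detected in only 5 of the 68. The Ythdf2 UMIs of the other barcodes were mostly under the cKO hashtag, 5886 against 676 under the WT hashtag in control and 6680 against 738 in IR.

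Among genes in no list, those with the highest ratios against other barcodes in both libraries were led by Snn, with 38 and 21 UMIs in control and IR members against 1 and 3 in all other barcodes, Chst3, a sulfotransferase gene, with 42 and 27 against 5 and 2, and Scd1, the stearoyl-CoA desaturase, with 59 and 23 against 3 and 6. Others in the 20 were Rasgrp3, Sdc4, Cd38, Hvcn1, Siglecg, Slamf6 and Gimap6. Siglecg, an inhibitory receptor of B cells, was at 316 and 250 CPM, with ratios of 5.56 (5.22 to 5.91) and 4.61 (4.10 to 5.08). Cd38, an ectoenzyme, was at 61.1 and 89.7 CPM. At the other end, Cd63, a tetraspanin gene of granules, had 0 UMIs in members against 72.6 and 71.1 CPM in other barcodes, at least 7.13-fold lower in control and 3.70-fold lower in IR when 3 counts were used as the floor. Asprv1, Chil1, Csf1, Arg2, Ifitm1 and Cd300lf were also among the 10 lowest.

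The share of B cells was lower in the IR library. Members were 0.592% (0.449 to 0.767) of control and 0.271% (0.175 to 0.399) of IR barcodes, a ratio of 0.457 (0.274 to 0.743) and a difference of -0.322 percentage points (-0.517 to -0.135). With the WT hashtag the shares were 0.651% and 0.338% and the ratio 0.519 (0.266 to 0.974), and with the cKO hashtag 0.532% and 0.206% and 0.387 (0.148 to 0.909). Among monocyte-poor members the ratio was 0.465 (0.264 to 0.794). Between hashtags the intervals included 1: the cKO over WT ratio was 0.818 (0.448 to 1.46) in control and 0.609 (0.226 to 1.51) in IR.

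The shares of other populations of the sort also differed between the libraries. Neutrophil-rich barcodes were 62.5% of the control and 65.1% of the IR library. The other sets were counted only among neutrophil-poor barcodes that were not members, and their shares are of all barcodes. Those with 10 or more classical monocyte UMIs were 27.8% and 24.4%, and those with 10 or more T cell UMIs were 0.696% in control and 0.195% in IR. NK barcodes were 3.13% and 1.85%, and erythroid barcodes numbered 28 and 3. With neutrophil-poor barcodes as the denominator the member shares were 1.58% and 0.775%, and the ratio was 0.491 (0.294 to 0.799). In a sorted suspension a lower share cannot be told apart from a larger yield of the other cells, and the part of the T, NK and erythroid barcodes in the result was not tested.

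The IR comparison within members used genes with 50 or more UMIs over both libraries and called a gene when the log2 ratio of IR over control was past 1 and had the same sign in WT-hashtag and cKO-hashtag members. Of 1304 genes counted, 13 were higher (0.997%) and 27 lower (2.07%). Among monocyte-poor members 8 of 637 were higher (1.26%) and 6 lower (0.942%), and only 4 higher and 2 lower genes were shared with the full set. The 4 were Zbtb20, Apoe, Ly6a and Sept1, and the 2 were Vpreb3 and Nop10. By TMM 16 genes were higher and 20 lower, 44.4% of the calls higher against 32.5% by total UMIs.

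Zbtb20, a transcriptional repressor, was higher in IR. Its level was 208 CPM in WT control, 44.6 in cKO control, 705 in WT IR and 83.4 in cKO IR members, so the WT IR pool was the highest and the intervals of the cKO pools overlapped (14.5 to 104 and 27.1 to 195). In monocyte-poor members the levels were 259, 64.7, 888 and 147 CPM. The log2 ratio was 1.63 (1.05 to 2.29), and 1.81 in monocyte-poor members. The highest single member held 30.6% of the IR UMIs. Other blood barcodes were at 27.0 CPM in control and 18.1 in IR. Ly6a, the interferon-inducible surface protein Sca-1, was at 352, 259, 519 and 801 CPM in WT control, cKO control, WT IR and cKO IR members, with a log2 ratio of 1.17 (0.72 to 1.64) in all and 1.17 in monocyte-poor members. In the latter its levels were 399, 372, 654 and 1435 CPM. Other blood barcodes went from 8.63 to 16.1 CPM. Apoe, the lipid transport apolipoprotein, had a ratio of 1.43 (1.04 to 1.86), with 55.1% of its IR UMIs in 1 member with monocyte RNA, while other barcodes went from 686 to 243 CPM.

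Vpreb3 was lower in IR. Its level was 528 CPM in WT control, 313 in cKO control, 198 in WT IR and 167 in cKO IR members, and both IR pools lay below both control pools. In monocyte-poor members the levels were 618, 534, 249 and 331 CPM, in the same arrangement. The log2 ratio was -1.09 (-1.77 to -0.49) in all and -1.08 in monocyte-poor members. Runx1, a transcription factor of blood lineages, was lower with a ratio of -1.56 (-2.93 to -0.54), and Rlim and Rbbp6, genes of ubiquitin ligases, with ratios of -2.10 and -1.85. These 3 had under 50 UMIs in monocyte-poor members and were not counted there, with ratios of -1.53, -1.95 and -2.12. Lower ratios of F13a1 (-2.77), Chil3 (-1.56) and Hopx (-2.51) were seen in the full set, and F13a1 and Chil3 are classical monocyte genes carried by the members with monocyte RNA.

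The higher secretory genes in IR came largely from 1 member. Mzb1, Xbp1, Txndc5 and Pdia4, which fold or control secreted proteins, had log2 ratios of 1.73, 1.12, 1.56 and 1.10, and of 0.81, -0.38, 0.03 and 0.19 in monocyte-poor members. The member with Igha held 53.3% of the Mzb1 and 71.4% of the Txndc5 UMIs of the IR library. Without it, 4 genes were higher and 22 lower. The S100a8 and S100a9 ratios of 2.77 and 1.96 in monocyte-poor members had 57.5% and 59.5% of their IR UMIs in 1 barcode each, and the 2 IR monocyte-poor members highest in the neutrophil genes of the rule had 3.92% and 4.28% of UMIs in them.

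Most listed B cell genes did not pass the limit in the IR comparison. Of 13 counted surface genes 1 was lower (Vpreb3) and 0 higher, of 16 transcription factors and of 16 receptor signalling genes 0 passed in either direction, and of 10 class II genes 0 passed. Cd74 had a ratio of 0.39 (0.31 to 0.47), and 0.16 in monocyte-poor members. Ebf1 was at -0.26 (-0.57 to 0.04) and Ccr7 at 0.13 (-0.50 to 0.75). Of the plasma cell list 3 of 6 counted genes were higher (Mzb1, Xbp1 and Ly6a). Of the p53 list 2 genes were counted and 0 passed, with Bax at -0.23, and the DNA damage genes Cdkn1a and Mdm2 had 5 and 8 UMIs in IR members against 12 and 10 in control. Of the immediate early genes Nr4a1 was lower, at -1.70, of 17 counted, and 0 were higher. Nr4a1 also stands on the nonclassical monocyte list. With monocyte-poor members only, 12 immediate early genes were counted, and 0 were higher and 0 lower. In monocyte-poor members Tnfrsf13c, Blk and Vpreb3 were lower, with Tnfrsf13c at -1.31 (-2.53 to -0.37) and at -0.92 in all members.

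**Figure D5:**
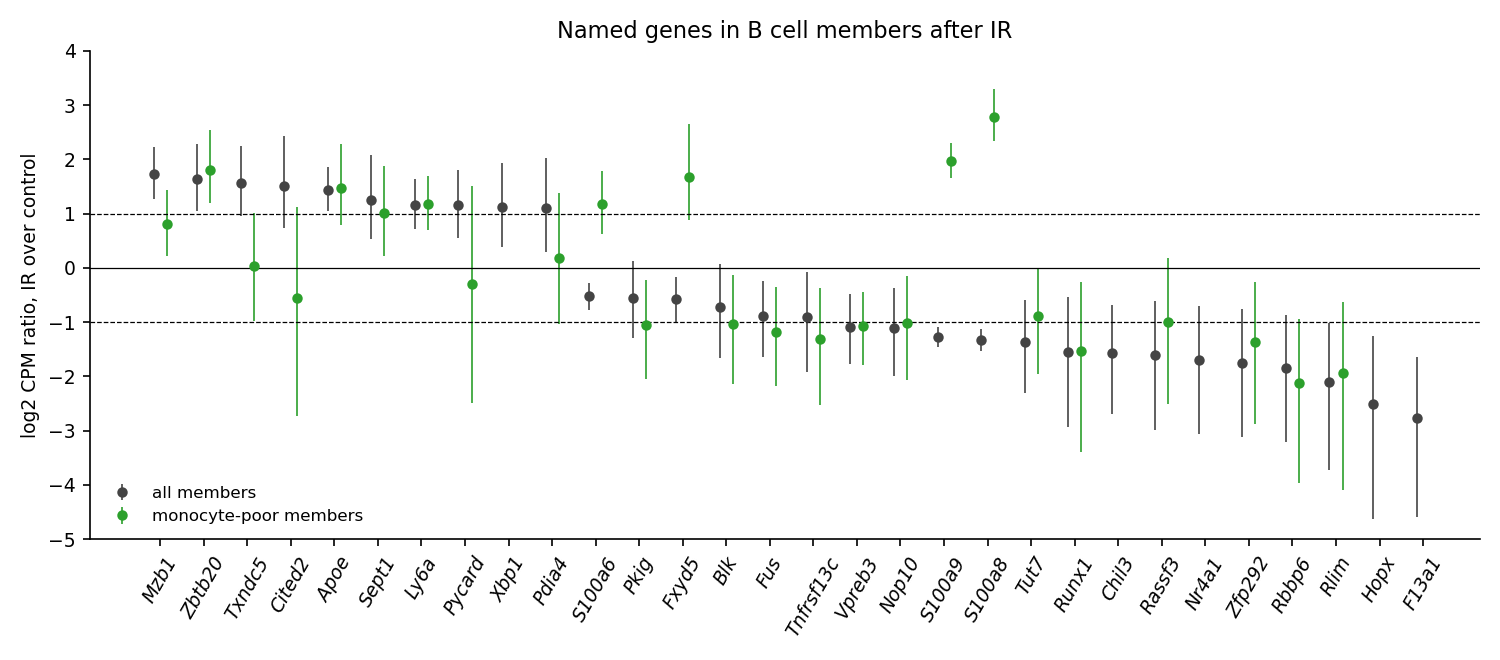
Log2 ratio of IR over control CPM (y axis) of 30 named genes (x axis) in all members and in monocyte-poor members, with counting intervals and dashed lines at -1 and 1. Points with under 10 UMIs over both libraries are left out. Zbtb20 is above 1 and Vpreb3 is below -1 in both sets, whereas Mzb1 is above 1 with all members only.

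The hashtag comparison within members also called few genes. Of 1031 genes counted, 14 were higher (1.36%) and 22 lower (2.13%) in cKO-hashtag than in WT-hashtag members. In monocyte-poor members 8 of 637 were higher (1.26%) and 9 lower (1.41%), with 3 higher and 7 lower genes in both. By total UMIs 38.9% of the calls were higher, by TMM 19 genes were higher and 19 lower, and with immunoglobulin genes left out of totals 51.3%. Igha, with 1810 UMIs under the cKO hashtag and 1 under the WT hashtag, and Lyz1, with 141 and 0, each rested on 1 member, the one with Igha and another with 140 Lyz1 UMIs. Il1b, Ly6c2, Ms4a6c and Tyrobp were also higher, and are genes of monocytes or neutrophils. Lyz2 was lower, with 8 against 851 UMIs, of which 835 lay in the 3 WT-hashtag members with monocyte RNA.

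Of B lineage genes, several were lower under the cKO hashtag with all members. Cd22 had a log2 ratio of -1.31 (-2.21 to -0.56), Ccr7 of -1.25 (25 against 73 UMIs), Fcmr of -1.08 (-1.60 to -0.60), and Fcrla, Siglecg, Syk, Cd81 and Ikzf3 were also lower. Of these genes only Ccr7, at -1.16, also passed in monocyte-poor members, where Cd22 and Fcrla were at -0.78 and -0.65. Of 13 counted surface genes 3 were lower with all members, and 0 in monocyte-poor members. Zbtb20 had 10 against 83 UMIs, a ratio of -2.69 (-3.90 to -1.84), and -2.39 in monocyte-poor members. Tnrc6b, AC149090.1, Med13, Klf6 and Ankrd44 passed in both sets as well, whereas Sh3bp5 and Cct2 passed with all members only.

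Ythdf2 itself was sparse in the members. In control members it had 11 UMIs under the cKO hashtag and 1 under the WT hashtag, a log2 ratio of 2.70 (0.84 to 9.05), and in IR members 1 and 6, a ratio of -1.52 (-7.68 to 0.89). It was detected in 14 members, 5 of them among the 68 monocyte-poor members, where control counts were 0 and 1. All 5 of these monocyte-poor members carried the WT hashtag, and the cKO-hashtag ones had 0 Ythdf2 UMIs in both libraries. Other blood barcodes stood at 303 CPM in control and 335 in IR under the cKO hashtag, against 30.7 and 32.0 under the WT hashtag. That cKO-hashtag excess was not seen in the monocyte-poor members. Counts this low do not give the size of a difference between hashtags, and its cause was not tested.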

How the data were processed

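The members and gene lists were chosen with earlier results of these data known. The authors aligned reads to mm10 (Cell Ranger, 6.0.1 in the submitters' notes; Seurat 4.0.6) and deposited UMI counts per gene and per hashtag for all barcodes, including empty ones; annotation was GENCODE. The file headers name another Cell Ranger release than the notes. Barcodes were filtered as in the rule. Hashtags were assigned with HTODemux (Seurat 5.3.0 in R 4.3.3, quantile 0.99, seed 42). Counts were summed per library and scaled to CPM, and log2 ratios had 1 UMI, scaled to depth, added. Intervals were exact Poisson (levels), Clopper-Pearson (shares), Newcombe (differences) and conditional binomial (ratios), computed in Python 3.11.15 with scipy 1.17.1. Cells are not replicates, so no p-value was computed and edgeR 4.0.16 gave TMM factors only. Doublets were not removed: Scrublet in scanpy 1.11.5 marked 0 and 1 barcodes, so its top 6% was removed as an alternative. The code was tested on simulated data. Named genes were the members of the lists and, of genes in no list, the 20 with the highest and 10 with the lowest ratio against other barcodes, and the 10 highest and 10 lowest called in each of the other comparisons. Predicted genes were counted and not named singly. Mx1 and a few other listed genes are not reported here. Per the labels, hashtag and RNA libraries came from the same cells. The authors' tumor libraries were used only for counts of barcodes meeting the rule.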

Additional observations from a re-analysis of the deposited data

Results flagged for a closer look

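The same rule applied to the tumor libraries, which the comparisons above do not use, found 1 barcode in the tumor control and 2 in the tumor IR library. Of the 2 tumor IR barcodes, 1 held 527 UMIs of Igha, 544 of Jchain and 4253 of Igkc and the other held 0 of each, with 4 marker UMIs, all Cd79b, while the tumor control barcode held 0 of Igha, 0 of Jchain and 0 of Igkc. The first drew attention because this signal lies in samples outside the blood comparisons and above the control library.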

How the results depend on the processing

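Of the 124 values under an alternative for the shares, counts of genes and Ythdf2, 101 kept their direction and size class, 22 moved and 1 reversed. With a minimum of 2 marker UMIs the member share was 1.05% in control and 0.855% in IR, and the ratio 0.815. The other alternatives gave ratios from 0.444. With a minimum of 50 UMIs, 59 genes were higher and 103 lower in B cells than in other barcodes, and TMM called 629 lower. In the IR comparison a minimum of 20 UMIs called 52 higher and 193 lower, and a minimum of 100 called 5 and 6. Monocyte-poor members gave 8 and 6, leaving out the Igha member gave 4 higher, and a marker minimum of 8 UMIs gave 53 lower. In the hashtag comparison a minimum of 20 UMIs called 89 higher and 121 lower, and a minimum of 100 called 8 and 6. Monocyte-poor members gave 8 and 9, a marker minimum of 8 UMIs gave 31 higher, and requiring 80% of hashtag UMIs in 1 hashtag gave 31 higher. Ythdf2 in control members turned to -0.85 in monocyte-poor members. Xbp1 in the IR comparison turned to -0.38 and Ly6c2 in the hashtag comparison to -0.33 in monocyte-poor members, and Il1b in the hashtag comparison turned to -0.44 when neutrophil genes were limited to 1%. Higher minimum counts leave fewer genes to count, and for the other changes the cause was not tested. No paired analysis was possible because each group was 1 pool and no result came from a test. With 82 members, a gene at 1 UMI in a pool of 8 members has a wide interval.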
